A study of Mus musculus with 18 samples.

Results

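The genes described here are the receptors for the constant (Fc) part of immunoglobulin G (IgG) and the chain through which most of them signal: Fcgr1, Fcgr3, Fcgr4, Fcgr2b, Fcer1g and Fcgrt. They were picked by symbol from the array annotation, taking probe sets that carry 1 symbol and, where a gene had several, the probe set with the highest mean over the 18 arrays. Of the 6 genes, 5 were measured and all 5 passed the filter on low values, among 14003 genes tested in all. Fcgrt, the transport receptor that protects IgG from degradation, is not listed in the probe set annotation used here and was not analysed here. The probe sets were 10500335 for Fcgr1, 10360040 for Fcgr3, 10351509 for Fcgr4, 10360028 for Fcgr2b and 10360070 for Fcer1g.

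Fc gamma receptors bind IgG that has coated a microbe, a soluble antigen or a cell, and they link antibody to uptake, antigen presentation and inflammatory signalling in dendritic cells and macrophages. In the mouse, Fcgr1 encodes the high-affinity activating receptor CD64, and Fcgr3 and Fcgr4 encode activating receptors of lower affinity. All of these depend on the common gamma chain, encoded by Fcer1g, which carries the tyrosine motif (ITAM) that recruits the kinase Syk. Fcgr2b encodes the inhibitory receptor CD32B, whose own motif (ITIM) recruits the lipid phosphatase encoded by Inpp5d. In the intestinal lamina propria, CD64 protein is widely used to tell macrophages from dendritic cells.

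Expression was measured on 18 Affymetrix arrays of cells from the colon lamina propria of BALB/c mice aged 8 weeks. MHC+CD11chigh cells were sorted by 2 integrins, with the CD103+CD11b- subset as the first, CD103+CD11b+ as the second and CD103-CD11b+ as the last. Each subset came from untreated mice (replicates 1 to 3) and from mice that received dextran sulfate sodium at 2% (DSS; replicates 4 to 6), a polymer whose damage to the epithelium of the colon leads to colitis, which made 6 groups of 3 arrays. The replicate number is the experiment number in the array titles, and each of the 6 experiments gave 1 array of every subset. The number of mice behind an array, the duration of DSS and whether replicates were separate animals are not in the labels, so a p-value here reflects only how far these arrays spread. No experiment held both conditions, so DSS treatment and experiment cannot be told apart.

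The labels were checked against markers. Over 9 genes of type 1 conventional dendritic cells (cDC1), the mean log2 level per array was 8.33 to 8.43 in CD103+CD11b- cells of both conditions and 6.05 to 7.01 in the other groups. Over 8 genes of type 2 conventional dendritic cells (cDC2), it was 5.58 to 6.11 in CD103+CD11b- cells and 7.68 to 8.30 in the others. The cDC1 list holds Itgae and the cDC2 list Itgam, which encode the sort markers CD103 and CD11b, so part of these differences follows from the sort. Over 13 of 14 macrophage genes, the mean level was 8.03 to 8.61 in CD103-CD11b+ cells. It was 7.34 to 7.48 in CD103+CD11b+ cells and 6.68 to 7.21 in CD103+CD11b- cells. The CD103-CD11b+ subset thus held the highest level of macrophage transcripts in both conditions, within a gate named for dendritic cells. Over 7 of 9 monocyte genes the level was also highest there, at 8.39 to 8.83 against 7.63 to 8.20 in the other arrays. Over 5 of 6 plasmacytoid dendritic cell genes it was 6.26 to 6.94 there and 5.88 to 6.18 in the other arrays. Replicate 2 of the untreated CD103-CD11b+ cells stood apart, with a macrophage level of 8.61 where the other untreated arrays of that subset gave 8.12 and 8.13. Its plasmacytoid dendritic cell level was 6.94, where those arrays gave 6.29 and 6.50.

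Fcgr2b, Fcgr4, Fcgr3 and Fcer1g lie in that order on mouse chromosome 1 and Fcgr1 lies on chromosome 3, in the RefSeq gene table of assembly GRCm38.p6. The windows before the RefSeq starts of all 5 genes were searched, and those of the 3 activating, ligand-binding receptors are shown because each carries a match to GAGGAA, the core of the motif of the myeloid transcription factor PU.1. The 150 bases before each start are written 5′ to 3′ on the strand of the gene, and capitals mark a match on either strand to GAGGAA or to TTCNNNGAA, the palindrome recognised by STAT factors. The windows are chr3:96293970-96294119 (minus strand) for Fcgr1, chr1:171059404-171059553 (minus strand) for Fcgr3, at the first of 2 listed starts, and chr1:171018776-171018925 (plus strand) for Fcgr4.
Fcgr1: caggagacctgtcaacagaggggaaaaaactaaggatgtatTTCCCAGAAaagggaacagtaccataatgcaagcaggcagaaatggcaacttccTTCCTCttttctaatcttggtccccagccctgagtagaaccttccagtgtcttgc
Fcgr3: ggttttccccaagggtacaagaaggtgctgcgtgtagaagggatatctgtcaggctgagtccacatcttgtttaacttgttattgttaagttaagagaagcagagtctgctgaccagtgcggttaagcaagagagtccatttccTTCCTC
Fcgr4: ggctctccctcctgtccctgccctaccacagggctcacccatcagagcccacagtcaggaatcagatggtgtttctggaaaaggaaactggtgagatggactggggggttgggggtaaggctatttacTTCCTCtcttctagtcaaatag

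The match to GAGGAA, read on the opposite strand as TTCCTC, began at position -55 for Fcgr1, -6 for Fcgr3 and -22 for Fcgr4, where -1 is the base before the start. Among the windows of 250 bases before 32851 RefSeq starts, 23.3% held GAGGAA. Fcgr1 alone of the 5 genes matched TTCNNNGAA, at position -109, a motif found in 7.0% of all windows. Interferon gamma is known to raise Fcgr1 in myeloid cells. The other 7 motifs searched, also on both strands, were AGGAAG (29.5% of windows, and sharing most of its letters with GAGGAA), an extended PU.1 motif (0.4%), an interferon-stimulated response element (0.7%), a composite ETS-IRF element (0.1%), a spaced interferon regulatory factor motif (6.8%), the AP-1 site TGACTCA (4.5%) and the E-box CACGTG (6.0%). Of these, AGGAAG matched in Fcgr1, Fcgr3, Fcgr4 and Fcer1g, and the spaced interferon regulatory factor motif matched in Fcgr4. The window of Fcgr2b held none of the 9 motifs, and that of Fcer1g held AGGAAG only. These matches describe the letters of the windows and are no measure of binding.

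Fcgr1, the high-affinity receptor, was highest in CD103-CD11b+ cells and lowest in untreated CD103+CD11b- cells. In untreated mice its log2 level was 3.46, 4.10 and 3.69 in CD103+CD11b- cells, 4.93, 4.77 and 4.62 in CD103+CD11b+ cells, and 5.52, 6.29 and 5.56 in CD103-CD11b+ cells. After DSS it was 4.42, 4.74 and 4.47 in CD103+CD11b- cells, 4.81, 5.04 and 4.95 in CD103+CD11b+ cells, and 6.62, 6.11 and 6.21 in CD103-CD11b+ cells. No array of CD103-CD11b+ cells fell as low as any array of another subset, and no DSS array of CD103+CD11b- cells fell as low as an untreated one. Ordered by mean ± SD (n = 3 each), the groups were DSS CD103-CD11b+ at 6.31 ± 0.27, untreated CD103-CD11b+ at 5.79 ± 0.43, DSS CD103+CD11b+ at 4.93 ± 0.11, untreated CD103+CD11b+ at 4.78 ± 0.15, DSS CD103+CD11b- at 4.54 ± 0.17 and untreated CD103+CD11b- at 3.75 ± 0.32. Neighbours overlapped in this order except at the step from CD103-CD11b+ to CD103+CD11b+ cells and at the last step. The level of 3.46 lay under the filter level of 3.51, the 40th percentile of all values, and the other 2 values of this group lay near the array medians of 3.99 to 4.09. The arrays carry no detection calls, so Fcgr1 may lie at the floor of the array in untreated CD103+CD11b- cells, and log2 differences against that group may then understate the true ones.

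Fcgr3, a low-affinity activating receptor, was at 8.16 or more in every array of CD103-CD11b+ cells and at 7.20 or less in every other array. In untreated mice its log2 level was 6.15, 5.93 and 6.28 in CD103+CD11b- cells, 6.82, 6.99 and 6.96 in CD103+CD11b+ cells, and 8.37, 8.42 and 8.16 in CD103-CD11b+ cells. After DSS it was 6.98, 7.20 and 6.68 in CD103+CD11b- cells, 7.13, 7.11 and 6.93 in CD103+CD11b+ cells, and 8.66, 8.25 and 8.37 in CD103-CD11b+ cells. The DSS CD103+CD11b- arrays thus overlapped the CD103+CD11b+ arrays of both conditions, with 1 above, 1 below and 1 among them, while untreated CD103+CD11b- cells lay below every other array. The means ± SD were 8.42 ± 0.21 and 8.32 ± 0.14 in DSS and untreated CD103-CD11b+ cells, 7.06 ± 0.11 in DSS CD103+CD11b+ cells, 6.95 ± 0.26 in DSS CD103+CD11b- cells, 6.93 ± 0.09 in untreated CD103+CD11b+ cells and 6.12 ± 0.17 in untreated CD103+CD11b- cells.

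Fcgr4, the other activating receptor of lower affinity than Fcgr1, was again highest in CD103-CD11b+ cells, with 1 array far above its replicates. In untreated mice its log2 level was 4.64, 4.56 and 4.41 in CD103+CD11b- cells, 4.72, 5.14 and 4.84 in CD103+CD11b+ cells, and 5.62, 7.59 and 5.81 in CD103-CD11b+ cells. After DSS it was 5.40, 5.56 and 4.84 in CD103+CD11b- cells, 4.79, 5.33 and 5.58 in CD103+CD11b+ cells, and 6.68, 6.90 and 6.65 in CD103-CD11b+ cells. The value of 7.59 belongs to replicate 2 of the untreated CD103-CD11b+ cells, the array with the highest macrophage and plasmacytoid dendritic cell levels. That group's mean was 6.34 ± 1.08, against 6.74 ± 0.14 in DSS CD103-CD11b+ cells. The remaining means lay between 4.54 ± 0.12 in untreated CD103+CD11b- cells and 5.27 ± 0.38 in DSS CD103+CD11b- cells, with 5.23 ± 0.41 and 4.90 ± 0.22 in DSS and untreated CD103+CD11b+ cells. In this order the groups overlapped their neighbours except at the step from CD103-CD11b+ cells to DSS CD103+CD11b- cells and at the last step, to untreated CD103+CD11b- cells.

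Fcgr2b, the inhibitory receptor, gave the same order of subsets in both conditions, and no group overlapped the next. In untreated mice its log2 level was 6.12, 6.08 and 6.44 in CD103+CD11b- cells, 7.04, 6.96 and 6.99 in CD103+CD11b+ cells, and 7.75, 8.20 and 8.05 in CD103-CD11b+ cells. After DSS it was 6.57, 6.86 and 6.82 in CD103+CD11b- cells, 7.46, 7.17 and 7.08 in CD103+CD11b+ cells, and 8.24, 8.34 and 8.21 in CD103-CD11b+ cells. In each subset every DSS array lay above every untreated one, in CD103-CD11b+ cells by 8.208 against 8.204. The groups were likewise apart for 12.3% of all genes in CD103+CD11b-, 15.5% in CD103+CD11b+ and 11.5% in CD103-CD11b+ cells. Limma called the DSS difference of Fcgr2b in no subset (adjusted p = 0.321, 0.594 and 0.713 in the same order). The means ± SD were 8.26 ± 0.07 and 8.00 ± 0.23 in DSS and untreated CD103-CD11b+ cells, 7.24 ± 0.20 and 7.0 ± 0.04 in DSS and untreated CD103+CD11b+ cells, and 6.75 ± 0.15 and 6.21 ± 0.20 in DSS and untreated CD103+CD11b- cells.

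Fcer1g, the signalling chain, had the tightest replicates of the 5 genes. In untreated mice its log2 level was 8.89, 8.98 and 8.95 in CD103+CD11b- cells, 10.01, 9.87 and 9.99 in CD103+CD11b+ cells, and 10.38, 10.61 and 10.43 in CD103-CD11b+ cells. After DSS it was 9.38, 9.49 and 9.46 in CD103+CD11b- cells, 9.82, 9.81 and 9.89 in CD103+CD11b+ cells, and 10.37, 10.33 and 10.49 in CD103-CD11b+ cells. CD103+CD11b- cells were lowest in each condition, and the 3 DSS arrays of this subset lay between its untreated arrays and all arrays of the other subsets. The means ± SD were 10.47 ± 0.12 and 10.40 ± 0.08 in untreated and DSS CD103-CD11b+ cells, 9.96 ± 0.07 and 9.84 ± 0.04 in untreated and DSS CD103+CD11b+ cells, and 9.44 ± 0.05 and 8.94 ± 0.05 in DSS and untreated CD103+CD11b- cells.

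**Figure D1:**
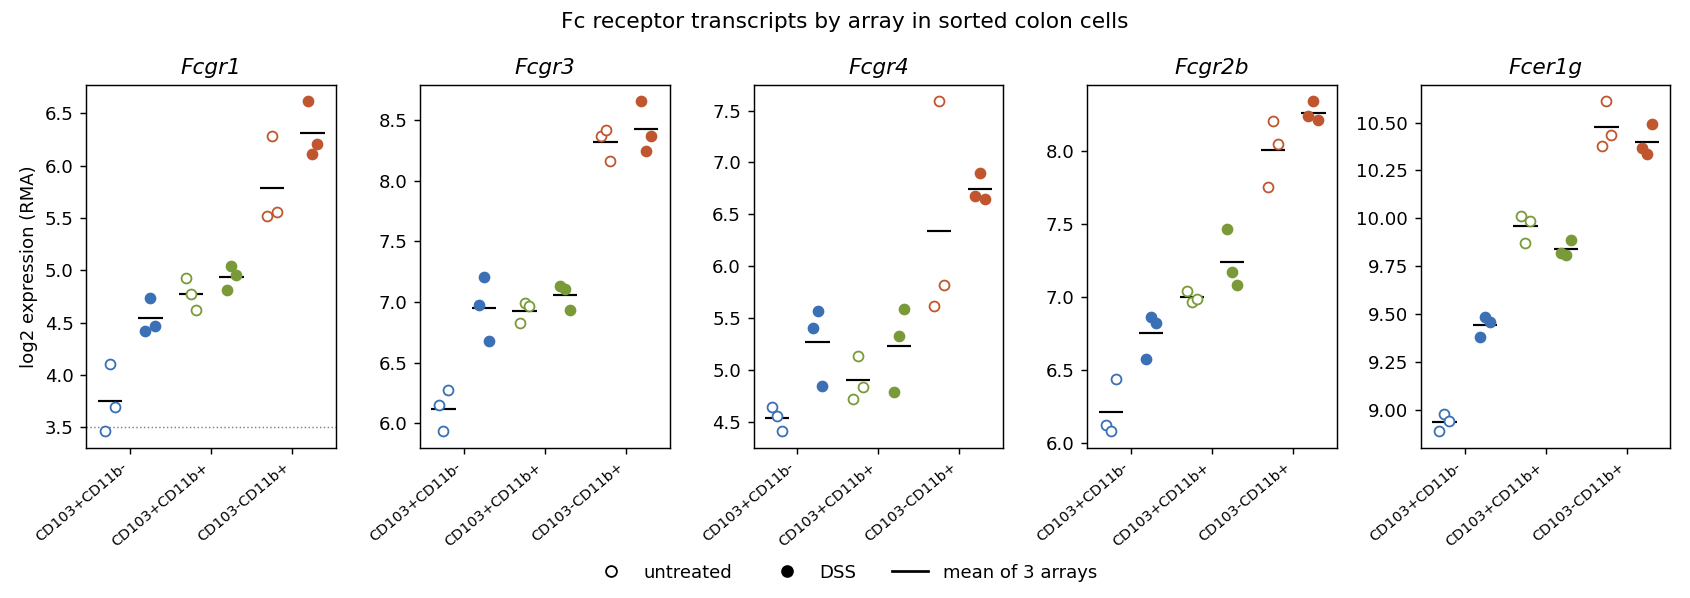
The vertical axes give the log2 level of each gene, on a scale of its own, and the horizontal axes give the 3 subsets; open circles are untreated arrays, filled circles DSS arrays, and bars the means of 3 arrays. CD103-CD11b+ cells are highest for all 5 genes, untreated CD103+CD11b- cells are lowest, and 1 untreated CD103-CD11b+ array of Fcgr4 reaches 7.59; the dotted line in the Fcgr1 panel is the filter level of 3.51.

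In untreated mice, all 5 genes were lower in the CD103+CD11b- than in the CD103-CD11b+ subset (5 of 5 called, where 10.3% of all genes were called and 5.32% were called lower). Calls are limma tests with an adjusted p under 0.05 after Benjamini-Hochberg adjustment over every gene tested. Fcgr3 differed by -2.20 ± 0.15 (log2 difference ± SE), a 4.58-fold difference that ranked 18 by p among all genes (adjusted p = 8.87e-09). Fcgr1 differed by -2.03 ± 0.20 (adjusted p = 6.62e-07), Fcgr4 by -1.80 ± 0.35 (adjusted p = 0.00149) and Fcgr2b by -1.79 ± 0.14 (adjusted p = 5.37e-08). Without replicate 2 of the untreated CD103-CD11b+ cells Fcgr4 differed by -1.18 and was still called. The signalling chain Fcer1g differed by -1.54 ± 0.11 (adjusted p = 1.11e-08). For all 5 genes the groups did not overlap, which held for 22.6% of all genes. The median difference of the 5 genes was -1.80, against 0.01 over all genes. In sorted populations, fewer cells of a type that expresses a gene and less of its RNA per cell cannot be told apart. Of the 13 macrophage genes, 9 were lower and 1 was higher in this comparison, and their part in the differences of the Fc receptors was not tested.

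Untreated CD103+CD11b- cells were also lower than untreated CD103+CD11b+ cells for 4 of the 5 genes, where 6.86% of all genes were called and 4.09% were called lower. Fcer1g differed by -1.02 ± 0.11 (limma, adjusted p = 3.22e-06) and Fcgr1 by -1.02 ± 0.20 (adjusted p = 0.00232). Fcgr3 differed by -0.81 ± 0.15 (adjusted p = 0.00144) and Fcgr2b by -0.78 ± 0.14 (adjusted p = 0.00129). The difference of Fcgr4 was -0.36, with a 95% interval from -1.09 to 0.37 (adjusted p = 0.646). The groups did not overlap for any of the 5 genes, Fcgr4 included, as for 22% of all genes. Of the 13 macrophage genes 6 were lower here and 0 higher. This comparison and the one before it share the arrays of the untreated CD103+CD11b- cells.

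Between the CD11b+ subsets of untreated mice, all 5 genes were lower in the CD103+CD11b+ than in the CD103-CD11b+ subset, where 4.11% of all genes were called and 1.75% were called lower. Fcgr3 was the 8th gene by p, at -1.39 ± 0.15 (limma, adjusted p = 3.41e-05). Fcgr2b differed by -1.0 ± 0.14 (adjusted p = 0.000477) and Fcgr1 by -1.01 ± 0.20 (adjusted p = 0.00614). Fcgr4 differed by -1.44 ± 0.35 (adjusted p = 0.0221) and Fcer1g by -0.52 ± 0.11 (adjusted p = 0.00971). The groups of all 5 genes did not overlap, as for 17.4% of all genes. Without replicate 2 of the untreated CD103-CD11b+ cells the difference of Fcgr4 was -0.82 (adjusted p = 0.0635) and that of Fcer1g -0.45 (adjusted p = 0.0524), so that 3 of 5 calls were left. The call of Fcgr4 was also lost without replicate 1 (adjusted p = 0.0859) or replicate 3 (adjusted p = 0.0578) of the untreated CD103+CD11b+ cells and with array weights (adjusted p = 0.0945), and in a fit on these groups alone only 2 of 5 genes were called. Of the 13 macrophage genes 8 were lower and 0 higher.

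After DSS, all 5 genes were again lower in the CD103+CD11b- than in the CD103-CD11b+ subset, where 8.53% of all genes were called and 4.34% were called lower. Fcgr1 differed by -1.77 ± 0.20 (limma, adjusted p = 5.30e-06), Fcgr2b by -1.51 ± 0.14 (adjusted p = 6.65e-07) and Fcgr3 by -1.47 ± 0.15 (adjusted p = 1.41e-06). Fcgr4 differed by -1.47 ± 0.35 (adjusted p = 0.00914) and Fcer1g by -0.96 ± 0.11 (adjusted p = 5.66e-06). None of the 5 genes overlapped between the groups, as for 24.6% of all genes. Without replicate 6 of the DSS CD103+CD11b- cells Fcgr4 differed by -1.26 (adjusted p = 0.0593). Macrophage genes were lower for 8 of 13 and higher for 1.

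Between the CD11b+ subsets after DSS, all 5 genes were lower in the CD103+CD11b+ than in the CD103-CD11b+ subset, where only 1.58% of all genes were called and 1.14% were called lower. Fcgr3 ranked 6 by p, at -1.37 ± 0.15 (limma, adjusted p = 6.40e-05), a 2.58-fold difference. Fcgr2b differed by -1.02 ± 0.14 (adjusted p = 0.000588) and Fcgr1 by -1.38 ± 0.20 (adjusted p = 0.000794). Fcer1g differed by -0.56 ± 0.11 (adjusted p = 0.0104) and Fcgr4 by -1.51 ± 0.35 (adjusted p = 0.0322). The groups of all 5 genes were apart, as for 16.5% of all genes. The call of Fcgr4 was lost without any single array of these groups other than replicate 6 of the CD103+CD11b+ cells (adjusted p = 0.0833 to 0.189), and that of Fcer1g was lost without replicate 6 of the CD103-CD11b+ cells (adjusted p = 0.0687), so that 3 of 5 calls were left without that array, and in a fit on these groups alone (adjusted p = 0.0522). Macrophage genes were lower for 7 of 13 and higher for 0.

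Between the CD103+ subsets after DSS only 1 of the 5 genes passed the test. Fcer1g was called lower in DSS CD103+CD11b- than in DSS CD103+CD11b+ cells (1 of 5 genes, where 5.96% of all genes were called and 2.39% were called lower), at -0.40 ± 0.11 (limma, adjusted p = 0.0346). That call was lost without any of the 6 arrays (adjusted p = 0.067 to 0.135) and with experiment as a replicate block (adjusted p = 0.0576). Fcgr2b differed by -0.49 ± 0.14 (adjusted p = 0.0516) and Fcgr1 by -0.39 ± 0.20 (adjusted p = 0.374). For Fcgr3 the difference was -0.10, with a 95% interval from -0.42 to 0.21, and for Fcgr4 it was 0.04, from -0.69 to 0.77. The groups were apart for 3 of the 5 genes, as for 22.8% of all genes. Whether the difference between these subsets itself changed with DSS is the interaction test of their DSS changes.

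**Figure D2:**
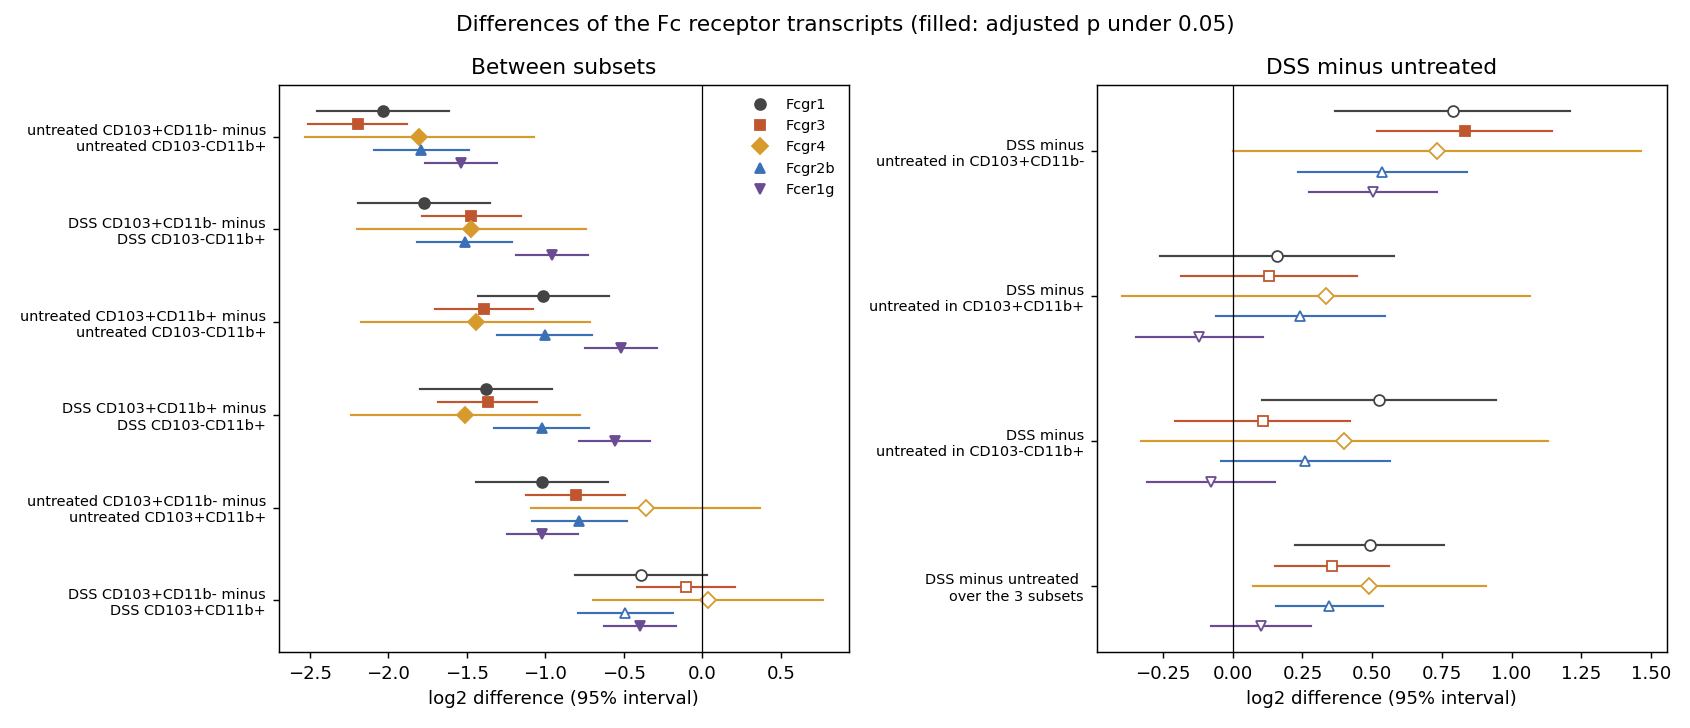
The horizontal axes give log2 differences with 95% intervals from limma, between subsets on the left and between DSS and untreated cells on the right; filled symbols have an adjusted p under 0.05. The 5 genes lie left of 0 in every comparison with CD103-CD11b+ cells, and on the right only Fcgr3 in CD103+CD11b- cells, at 0.83, is filled.

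DSS was then set against untreated cells within each subset. In CD103+CD11b- cells Fcgr3 was called higher by 0.83 ± 0.15, a 1.78-fold difference (limma, adjusted p = 0.028), and was 1 of 15 genes called higher. That is 1 of 5 genes, where 0.129% of all genes were called and 0.107% were called higher. Fcgr1 gave 0.79 ± 0.20 (adjusted p = 0.263), Fcgr2b 0.54 ± 0.14 (adjusted p = 0.321), Fcgr4 0.73 ± 0.35 (adjusted p = 0.816) and Fcer1g 0.50 ± 0.11 (adjusted p = 0.122). All 5 DSS groups lay wholly above the untreated ones, as 12.3% of genes were apart in either direction, and all 5 had an unadjusted p under 0.05, as did 6.08% of all genes. The median of the 5 differences was 0.73, against 0.02 over all genes. The call of Fcgr3 was kept without replicate 6 of the DSS CD103+CD11b- cells and lost without any of the 5 other arrays (adjusted p = 0.0701 to 0.192), and in a fit on these 2 groups alone (adjusted p = 0.172).

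Markers of other cells were read in the same arrays of CD103+CD11b- cells. Itgam, which encodes the sort marker CD11b, was at 5.70, 5.02 and 4.70 in untreated and 6.12, 6.13 and 6.13 in DSS CD103+CD11b- cells, a difference of 0.99 ± 0.20 (limma, adjusted p = 0.084). The mean macrophage level was 6.68 to 6.88 in untreated and 7.11 to 7.21 in DSS arrays of this subset, with 0 of 13 genes called and 6 at an unadjusted p under 0.05. The cDC2 level was 5.58 to 5.86 in untreated and 6.03 to 6.11 in DSS arrays, with 1 of 8 genes called, Sirpa. The cDC1 level was 8.33 to 8.36 in untreated and 8.39 to 8.43 in DSS arrays, with 0 of 9 genes called and 0 at an unadjusted p under 0.05. The neutrophil level was 4.0 to 4.39 in untreated and 4.46 to 5.21 in DSS arrays over 10 of 13 genes, of which only Retnlg was called, a gene named here after its value was seen. The neutrophil genes Cxcr2, Ngp and Ltf did not pass the filter. Over 8 of 13 eosinophil and mast cell genes the level was 4.84 to 5.11 in untreated and 5.20 to 5.49 in DSS arrays, with Epx, Prg2, Cma1, Ms4a2 and Fcer1a not past the filter. Over 10 of 12 natural killer and T cell genes it was 4.78 to 4.91 and 4.98 to 5.27, with Ncr1 and Klrb1c not past the filter, and over 8 of 9 B and plasma cell genes it was 6.92 to 7.23 and 6.77 to 6.84. Limma called 0 genes of these 3 lists, with 3, 2 and 2 at an unadjusted p under 0.05. Over 9 epithelial genes the level was 8.21 to 8.71 in untreated and 8.00 to 8.30 in DSS arrays of this subset. Over 8 genes of stroma and endothelium it was 5.66 to 6.03 and 5.83 to 5.94. The monocyte level was 7.63 to 7.92 and 7.85 to 8.01. The plasmacytoid dendritic cell level was 5.88 to 6.01 and 5.89 to 6.06. Over all 18 arrays the epithelial level ran from 8.00 to 9.07. Mast cells and natural killer cells also express Fcgr3 and Fcer1g. The part of these transcripts in the differences of the Fc receptors was not tested.

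In CD103+CD11b+ cells 0 of the 5 genes were called by limma between DSS and untreated mice and 0 had an unadjusted p under 0.05, where 0.0857% of all genes were called and 10.1% had such a p. The differences ran from -0.12 for Fcer1g, with a 95% interval from -0.35 to 0.11, to 0.34 ± 0.35 for Fcgr4. Fcgr1 gave 0.16, Fcgr3 0.13 and Fcgr2b 0.24. Fcgr2b was the 1 gene whose groups did not overlap, as for 15.5% of all genes.

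In CD103-CD11b+ cells limma again called 0 of 5 genes, and 1 had an unadjusted p under 0.05, where 0.1% of all genes were called and 7.67% had such a p. That gene was Fcgr1, at 0.52 with a 95% interval from 0.10 to 0.94 (adjusted p = 0.514). Fcgr4 gave 0.40, from -0.33 to 1.13, Fcgr2b 0.26, Fcgr3 0.11 and Fcer1g -0.08, from -0.31 to 0.15. The difference of Fcgr4 was 1.0 without replicate 2 of the untreated cells (adjusted p = 0.124) and 0.04 without replicate 1. Fcgr2b was again the 1 gene whose groups were apart, as for 11.5% of all genes. Itgae, which encodes CD103, was higher by 1.08 ± 0.13 in DSS than in untreated CD103-CD11b+ cells (adjusted p = 0.00103).

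The change with DSS was compared between subsets by interaction terms, and limma called 0 of the 14003 genes in each of the 3 tests. The change of Fcer1g in CD103+CD11b- cells exceeded that in CD103-CD11b+ cells by 0.58 ± 0.15, the 8th lowest p of all genes (adjusted p = 1.00), and that in CD103+CD11b+ cells by 0.62 ± 0.15 (adjusted p = 0.906). For Fcgr3 these differences were 0.72 ± 0.21 (adjusted p = 1.00) and 0.70 ± 0.21 (adjusted p = 0.983), and the change of Fcgr1 exceeded that in CD103+CD11b+ cells by 0.63 ± 0.28 (adjusted p = 0.983). Of the 5 genes, 2 had an unadjusted p under 0.05 against CD103-CD11b+ cells and 3 against CD103+CD11b+ cells, where 3.64% and 4.83% of all genes did. Between CD103+CD11b+ and CD103-CD11b+ cells 0 of 5 did, where 5.56% of all genes did, and the differences ran from -0.37 for Fcgr1 to 0.02 for Fcgr3. The difference of Fcgr4 between CD103+CD11b- and CD103-CD11b+ cells, 0.33 ± 0.49, turned to -0.29 without replicate 2 of the untreated CD103-CD11b+ cells. A difference between subsets in the DSS change was therefore not established for any of the 5 genes.

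Averaged over the 3 subsets of each experiment, 4 of the 5 genes were higher in every DSS experiment than in every untreated one, as 15.9% of all genes were apart in either direction. Fcgr2b had experiment means of 6.97, 7.08 and 7.16 in untreated and 7.43, 7.46 and 7.37 in DSS mice. Fcgr3 had 7.11, 7.12 and 7.13 in untreated and 7.59, 7.52 and 7.33 in DSS mice. Fcgr4, whose untreated experiment 2 reached 5.76, was the gene that overlapped, and without that experiment its difference was 0.74 (limma, adjusted p = 0.0613). None of the 5 was called by limma over experiments (0 of 5, where 0.186% of all genes were called), and 4 had an unadjusted p under 0.05, as did 10.5% of all genes. The differences were 0.49 ± 0.12 for Fcgr1 (adjusted p = 0.194), 0.35 ± 0.09 for Fcgr2b (adjusted p = 0.2), 0.36 ± 0.09 for Fcgr3 (adjusted p = 0.223), 0.49 ± 0.19 for Fcgr4 (adjusted p = 0.408) and 0.10 ± 0.08 for Fcer1g (adjusted p = 0.715).

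The balance of the inhibitory receptor and each activating receptor was compared between groups as a log2 difference within each array. Probe sets differ in brightness, so the value has no meaning by itself and only its change between groups is read, with no test. Fcgr2b minus Fcgr3 lay between -0.03 and 0.16 in untreated CD103+CD11b- cells, between -0.03 and 0.22 in untreated CD103+CD11b+ cells and between -0.62 and -0.11 in untreated CD103-CD11b+ cells. After DSS it lay between -0.40 and 0.14 in CD103+CD11b- cells, between 0.06 and 0.33 in CD103+CD11b+ cells and between -0.42 and 0.09 in CD103-CD11b+ cells. In untreated mice Fcgr3 was thus higher relative to Fcgr2b in CD103-CD11b+ cells than in both other subsets, without overlap. How often other pairs of genes part in this way was not tested. For levels of single genes, the untreated CD103-CD11b+ group was apart from CD103+CD11b- for 22.6% of genes and from CD103+CD11b+ for 17.4%. After DSS the CD103-CD11b+ group overlapped both others. Fcgr2b minus Fcgr1 showed no such separation in untreated mice, at 1.98 to 2.74 in CD103+CD11b- cells, 2.11 to 2.36 in CD103+CD11b+ cells and 1.92 to 2.49 in CD103-CD11b+ cells. Nor did Fcgr2b minus Fcgr4, at 1.48 to 2.03, 1.83 to 2.32 and 0.62 to 2.23 in the same order. Fcgr2b and Fcgr3 encode closely related extracellular domains, and hybridisation of one transcript to probes of the other was not tested.

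Receptors other than Fc gamma receptors that pair with the common gamma chain were likewise lower in CD103+CD11b- cells. Of 10 listed, 6 were tested (Oscar, Gp6, Pira2 and Fcer1a were not). In untreated CD103+CD11b- cells 6 of 6 were lower than in untreated CD103-CD11b+ cells, with a median difference of -2.20, where 5.32% of all genes were called lower. Clec4e, the Mincle receptor for microbial glycolipids, differed by -2.73 ± 0.29, Clec4n, which encodes the fungal mannan receptor Dectin-2, by -2.54 ± 0.19 and Clec4d, which encodes a partner of Mincle, by -2.32 ± 0.16. For the further counts of this list and of the later lists, the shares of all genes called are those given above for the same comparisons. The counts called lower were 4 of 6 of untreated mice for CD103+CD11b- against CD103+CD11b+ cells and 3 of 6 for their CD103+CD11b+ against their CD103-CD11b+ cells. After DSS they were 6, 3 and 3 of 6 in the matching comparisons of CD103+CD11b- with CD103-CD11b+, CD103+CD11b- with CD103+CD11b+, and CD103+CD11b+ with CD103-CD11b+ cells, and none was called higher in any of the 6 comparisons of subsets.

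With DSS, 2 of these 6 receptors were higher in CD103+CD11b- cells. Clec4e was at 4.87, 5.64 and 4.66 in untreated and 6.30, 6.95 and 7.23 in DSS arrays, a difference of 1.77 ± 0.29 (limma, adjusted p = 0.0173). Clec4d was at 6.54, 6.27 and 6.32 in untreated and 7.23, 7.49 and 7.30 in DSS arrays, a difference of 0.96 ± 0.16 (adjusted p = 0.0173). Both groups were apart for each gene. The call of Clec4e was lost without any of 4 of the 6 arrays (adjusted p of up to 0.12) and that of Clec4d likewise without any of 4 (adjusted p of up to 0.122). In the 2 other subsets 0 of 6 were called, with 1 and 2 at an unadjusted p under 0.05. Of all genes, 10.1% had such a p in CD103+CD11b+ cells and 7.67% in CD103-CD11b+ cells.

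Among the other chains with tyrosine motifs, Tyrobp, which encodes the adaptor DAP12, and Hcst, which encodes its relative DAP10, were lower in untreated CD103+CD11b- than in untreated CD103-CD11b+ cells, by -0.90 ± 0.12 and -0.97 ± 0.17, as 2 of 6 genes of their list. Both were also lower than in untreated CD103+CD11b+ cells, by -0.75 ± 0.12 for Tyrobp and -0.91 ± 0.17 for Hcst. Neither was called between the CD11b+ subsets, where limma called 0 of 6 genes of the list in untreated cells and 0 of 6 after DSS. An unadjusted p under 0.05 was seen for 0 genes in untreated cells and 1 after DSS, and for 16.1% and 9.61% of all genes. No gene of the list was called between DSS and untreated cells of any subset.

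The enzymes and adaptors that act after the receptors did not share one direction. Of 23 genes of Fc gamma receptor signalling 21 were tested, and between CD103+CD11b- and CD103-CD11b+ cells of untreated mice 5 were higher and 6 lower, with a median of 0.07. Syk, the kinase recruited by the gamma chain, was lower by -0.84 ± 0.16, the Src-family kinase gene Fgr by -0.98 ± 0.25 and the adaptor Gab2 by -1.37 ± 0.17. The call of Fgr was lost without replicate 1 or 3 of the untreated CD103+CD11b- cells or replicate 3 of the untreated CD103-CD11b+ cells (adjusted p of up to 0.0861). Higher were the exchange factor Vav3 at 1.06 ± 0.18, the Src-family kinase Fyn at 1.00 ± 0.15 and the phosphoinositide kinase subunit Pik3cd at 0.79 ± 0.17. Against untreated CD103+CD11b+ cells the counts were 5 higher and 5 lower, with Gab2 at -1.60 ± 0.17 and Vav3 at 1.11 ± 0.18.

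Between the CD11b+ subsets of untreated mice 2 signalling genes were higher, Dock2 at 0.49 ± 0.13 and Elmo1 at 0.47 ± 0.12, which encode parts of a Rac activator, and 2 were lower, the adaptor Lat2 at -0.72 ± 0.16 and Syk at -0.71 ± 0.16. Each of these 4 calls was lost without any of 3 to 5 of the 6 arrays, among them replicate 2 of the CD103-CD11b+ cells for each gene (adjusted p of up to 0.165). After DSS the counts for the same 3 pairs of subsets were 4 higher and 4 lower, 5 higher and 1 lower, and 0 and 0. The last pair had 4 genes at an unadjusted p under 0.05 in limma, where 9.61% of all genes had such a p. Between DSS and untreated cells limma called 0 of 21 in every subset. In CD103+CD11b- cells, CD103+CD11b+ cells and CD103-CD11b+ cells, 1, 1 and 3 genes had an unadjusted p under 0.05. Of all genes, 6.08%, 10.1% and 7.67% had such a p in the same order. The median DSS change of the 21 genes in CD103+CD11b- cells was 0.04.

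Genes of inhibitory signalling did not all run with Fcgr2b. Inpp5d, which encodes the phosphatase SHIP1 that Fcgr2b recruits, was higher in the CD103+CD11b- than in the CD103-CD11b+ subset, by 1.37 ± 0.15 in untreated and 1.40 ± 0.15 in DSS mice, opposite to Fcgr2b itself. It averaged 8.98 ± 0.12 in untreated CD103+CD11b- cells, 7.84 ± 0.03 in untreated CD103+CD11b+ cells and 7.60 ± 0.03 in untreated CD103-CD11b+ cells. The list of 12 phosphatases, adaptors and inhibitory receptors had 1 higher and 5 lower in the untreated comparison of these subsets. The lower genes included 3 inhibitory receptors of myeloid cells, Sirpa at -2.62 ± 0.14, Clec4a2 at -2.41 ± 0.19 and Cd300a at -1.80 ± 0.15. Against untreated CD103+CD11b+ cells 1 was higher and 3 lower, and between the untreated CD11b+ subsets 0 were higher and 2 lower. After DSS the counts higher and lower were 1 and 4, 1 and 3, and 0 and 2 for the same pairs.

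With DSS, Sirpa, the receptor for the CD47 signal on healthy cells, was the 1 gene of this list called, in CD103+CD11b- cells. It was at 6.30, 6.82 and 6.36 in untreated and 7.26, 7.41 and 7.31 in DSS arrays, a difference of 0.83 ± 0.14 (limma, adjusted p = 0.0215). The groups were apart, and the call was lost without any of 5 of the 6 arrays (adjusted p of up to 0.13). In the other subsets 0 of 12 were called, with 1 at an unadjusted p under 0.05 in each. Such a p was found for 10.1% of all genes in CD103+CD11b+ and 7.67% in CD103-CD11b+ cells.

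Cybb, the catalytic subunit of the phagocyte NADPH oxidase that IgG-coated particles engage, was lower in the CD103+CD11b- than in the CD103-CD11b+ subset, by -2.39 ± 0.16 in untreated and -1.89 ± 0.16 in DSS mice. Against CD103+CD11b+ cells it was lower by -1.84 ± 0.16 in untreated and -1.15 ± 0.16 in DSS mice. Of the 4 oxidase genes tested of 5, the partner Cyba was also lower against untreated CD103-CD11b+ cells, by -0.91 ± 0.22, a call lost without replicate 2 of those cells (adjusted p = 0.055). Limma called 0 of the 4 between DSS and untreated cells in each subset, with 2 at an unadjusted p under 0.05 in CD103+CD11b- cells and 0 in the others. In CD103+CD11b- cells 6.08% of all genes had such a p.

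**Figure D3:**
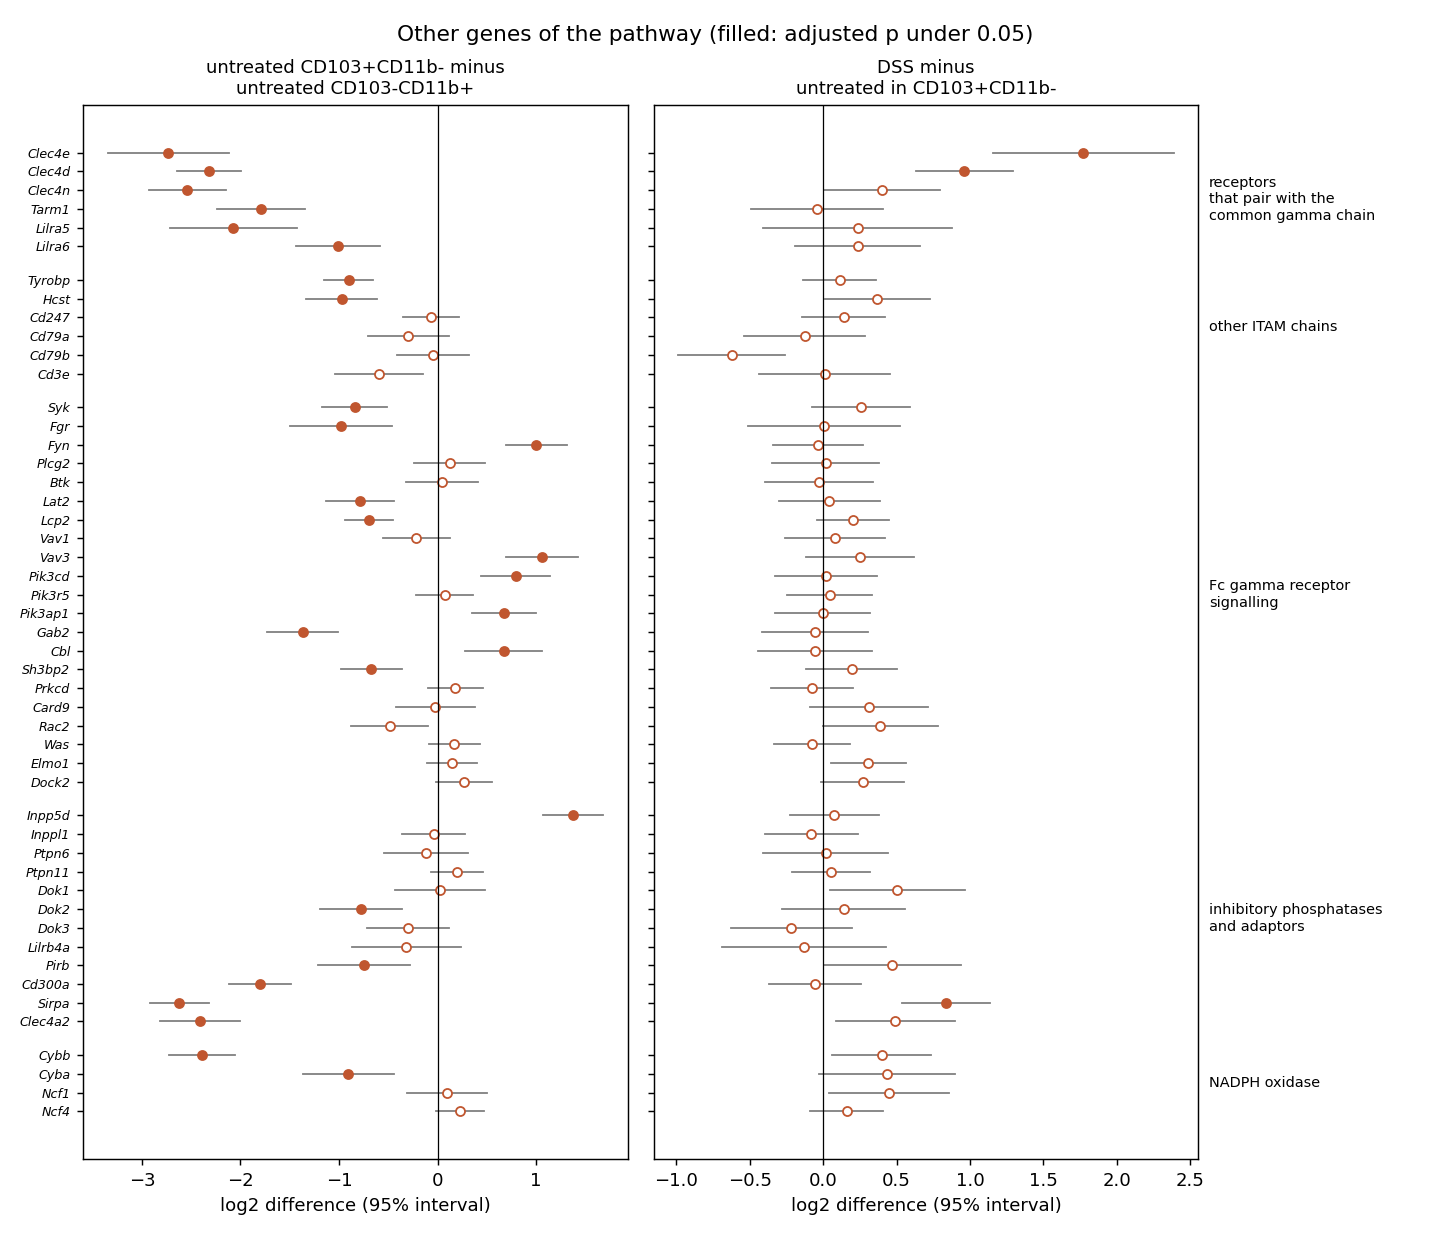
The horizontal axes give log2 differences with 95% intervals from limma for 49 genes of the pathway lists, between CD103+CD11b- and CD103-CD11b+ cells of untreated mice on the left and between DSS and untreated CD103+CD11b- cells on the right; filled points have an adjusted p under 0.05. Partner receptors of the gamma chain lie left of 0 together in the left panel, signalling genes lie on both sides, and only Clec4e, Clec4d and Sirpa are filled in the right panel.

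Across the 18 arrays, the levels of the 5 genes followed the macrophage level, the mean of 13 genes that include none of the 5. Arrays of CD103-CD11b+ cells were highest on both measures, and untreated CD103+CD11b- arrays were lowest on both. Within the CD103-CD11b+ subset, DSS arrays gave a macrophage level of 8.03 to 8.31 and untreated arrays 8.12 to 8.61, while Fcgr2b was 8.21 to 8.34 in DSS and 7.75 to 8.20 in untreated arrays. The macrophage ranges of the conditions thus overlapped in this subset. Fcgr2b was the 1 gene of the 5 whose groups were apart there, as for 11.5% of all genes, and its difference was not called. Its lowest DSS value was 8.208 and its highest untreated value 8.204. The part of macrophage transcripts in the levels of the Fc receptors was not tested.

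**Figure D4:**
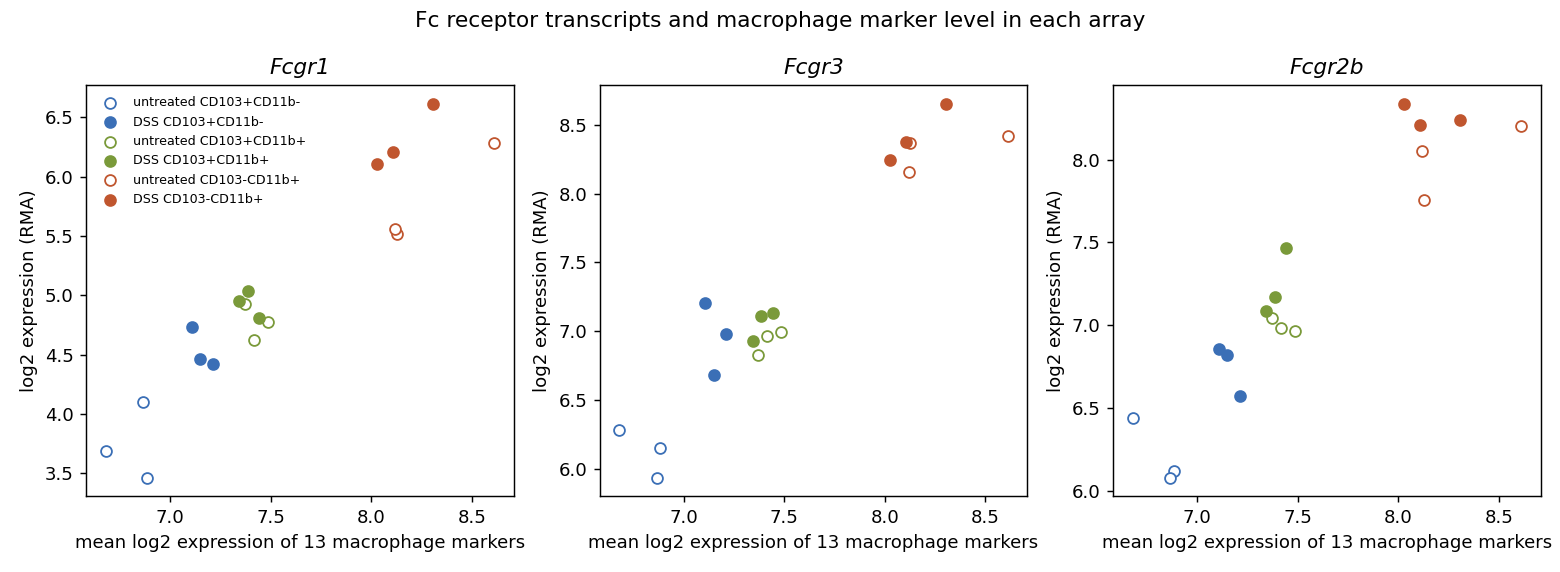
The horizontal axes give the mean log2 level of 13 macrophage genes per array and the vertical axes the log2 level of Fcgr1, Fcgr3 or Fcgr2b; colours are subsets, open circles untreated and filled circles DSS arrays. Arrays fall into their groups, from untreated CD103+CD11b- at a macrophage level of 6.68 to 6.88 up to CD103-CD11b+ at 8.03 to 8.61.

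The genes between the chromosome 1 receptors and Fcer1g were also read. Of the 6 that were tested (Cfap126, Sdhc, Pcp4l1, Nr1i3, Tomm40l and Apoa2), limma called 0 in 12 of the 13 comparisons. From 0 to 10.3% of all genes were called in these, so 0 of 6 is near that share and no result about the region. The 1 call, named after its value was seen, was Tomm40l, a relative of a mitochondrial import pore. It differed by -0.60 ± 0.14 between DSS CD103+CD11b+ and DSS CD103-CD11b+ cells (limma, adjusted p = 0.0337), where 1.58% of all genes were called.

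The 5 genes most like each Fc receptor gene were ranked by Pearson's r of log2 levels over the 18 arrays, which share groups and experiments, so these are descriptions. Fcgr1 was most like Pla2g7 at 0.955, Lst1 at 0.947, Plxdc2 at 0.947, Slc7a8 at 0.946 and the macrophage growth factor receptor gene Csf1r at 0.945. Fcgr3 was most like the membrane metalloproteinase gene Mmp14, the lysosomal Pld3 and the mannose receptor gene Mrc1, each at 0.954, then Lst1 and Plxdc2 at 0.952. Fcgr2b was most like Plxdc2 at 0.977, Lst1 at 0.961, the transcription factor gene Zeb2 at 0.957, Pla2g7 at 0.953 and Rnf149 at 0.952. Plxdc2 and Lst1 stand in all 3 of these lists. Fcer1g was most like 4 genes of lysosomes, phagosomes or the cell surface, Gla, Ctsa and Sirpa at 0.971 and Cybb at 0.969, followed by the protease gene Lgmn at 0.966.

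Fcgr4 shared none of its 5 most like genes with the other receptors. These were the inhibitory co-receptor gene Lag3 at 0.955, the mitochondrial superoxide dismutase gene Sod2 at 0.937, the collagenase gene Mmp13 at 0.932, Cd4 at 0.928 and Lhfpl2 at 0.927. For these 5 genes the correlation of deviations from the group means was 0.742 to 0.886, and for all but Sod2 the highest of the 18 arrays was, as for Fcgr4, replicate 2 of the untreated CD103-CD11b+ cells, at 6.44 for Lag3, 10.45 for Mmp13, 8.77 for Cd4 and 8.22 for Lhfpl2. Among pairs of the 5 Fc receptor genes, r over the 18 arrays ran from 0.769 for Fcgr4 with Fcer1g to 0.958 for Fcgr3 with Fcgr2b. Their deviations from the group means correlated between -0.06 and 0.61.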

How the data were processed

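Per the labels' protocols, sorted cells gave 5 ng of RNA, which Ovation Pico amplified and Encore labelled with biotin before 5.5 ug of single-stranded DNA was hybridised. The deposited values are log2 expression of each probe set on each array, from RMA (background correction, quantile normalization and probe summary) per the submitters' processing notes; its version is not given in the sources used here. They were used as deposited, so background correction could not be varied, and they carry no detection calls. Array medians lay between 3.99 and 4.09. Of 34760 probe sets, 21640 carried 1 symbol, 1321 several and 11799 none, and 21553 of the first matched the RefSeq table of GRCm38.p6 by gene ID, which gave names, gene order and promoter sequences. The array build is not given in the sources used here.

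A probe set was kept if it exceeded the 40th percentile of all values (3.51) in at least 3 arrays, and the probe set of highest mean stood for a gene. All 18 arrays entered 1 limma fit (version 3.58.1, R 4.3.3) with 6 group means. The comparison over subsets used the 6 experiment means. All 13 comparisons were two-sided, with Benjamini-Hochberg adjustment over 14003 genes. The fit was tested on simulated data. The number of arrays and the spread between replicates limit the precision, with a median standard error of 0.166 for a log2 difference between 2 groups.

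The experiment number in the titles was treated as pairing subsets of a condition. Residuals of arrays sharing a number correlated, across genes, between -0.03 and 0.32 in untreated cells (8 of 9 pairs over 0.1) and between 0.11 and 0.31 in DSS cells (9 of 9). The main fit, with group means only, did not use the experiment number. As another setting it was fitted as a replicate block. The block was fixed between subsets and random (duplicateCorrelation, consensus correlation 0.06 over the 18 arrays) between conditions.

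The Fc receptor genes and the gene lists were chosen with earlier results of these data known. In each list, the 3 called genes of largest difference each way could be named, besides the 5 Fc receptor genes, Itgae, Itgam and Itgax, and the 5 genes most like each.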

Additional observations from a re-analysis of the deposited data

How the results depend on the processing

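The number of Fc receptor genes called was recomputed with no filter, a stricter filter, quantile normalization applied again, arrays centred on their medians, the mean of a gene's probe sets, an intensity trend with robust spread, array weights, the compared groups alone, experiment as a replicate block and each array left out. With 3 arrays a group, a fit on the compared groups alone rests on few arrays. Between the CD11b+ subsets of untreated mice the 5 calls became 2 on the compared groups alone and 4 with array weights, and ranged from 3 to 5 with 1 array left out. In DSS CD103+CD11b- against CD103+CD11b+ cells the 1 call became 2 with the stricter filter, quantile normalization again, median centring, intensity trend or array weights, in each case with Fcgr2b added (adjusted p = 0.0325 to 0.0488). It became 0 on the compared groups alone, with the replicate block and without any 1 array (range 0 to 0). In DSS CD103+CD11b+ against CD103-CD11b+ cells the 5 calls became 4 on the compared groups alone, and ranged from 3 to 5 without 1 array. For DSS against untreated CD103+CD11b- cells the 1 call became 2 with an intensity trend (Fcer1g, adjusted p = 0.0158) or array weights (Fcer1g, adjusted p = 0.0399), 0 on the compared groups alone, and ranged from 0 to 1 with 1 array left out. The replicate block changed no other call of the 5 genes. The cause of these shifts was not tested.

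Directions reversed for these differences, none of them called. For DSS CD103+CD11b- against CD103+CD11b+ cells Fcgr4 gave -0.0322 with array weights and -0.19 to 0.25 with 1 array left out, and Fcgr3 -0.23 to 0.0335. Fcgr3 in DSS against untreated CD103-CD11b+ cells gave -0.00867 to 0.20. For the DSS change in CD103+CD11b- minus that in CD103-CD11b+ cells Fcgr4 gave -0.0253 with array weights and -0.29 to 0.69 with 1 array left out. For the DSS change in CD103+CD11b+ minus that in CD103-CD11b+ cells Fcgr2b gave 0.0948 with quantile normalization, 0.00665 with median centring and -0.13 to 0.11 with 1 array left out, and Fcer1g gave 0.11 with quantile normalization and -0.11 to 0.00511. In the same comparison Fcgr3 gave -0.0665 to 0.14 and Fcgr4 -0.69 to 0.30.

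Counts of all genes called moved by over 1.5 times between the CD11b+ subsets of untreated mice (575, from 150 to 697 over the settings that keep all arrays), in DSS CD103+CD11b+ against CD103-CD11b+ cells (221, from 206 to 366), in DSS against untreated CD103+CD11b+ cells (12, from 0 to 17), CD103-CD11b+ cells (14, from 3 to 24) and over all subsets (26, from 16 to 134), and in the change of CD103+CD11b- minus that of CD103+CD11b+ cells (0, from 0 to 2). In the first of these the split was 330 higher and 245 lower, or 242 and 309 after quantile normalization again. No scaling moved the median of all genes by over 0.1.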

Other observations

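Fc receptors for other antibody classes, the Fc receptor-like genes, Trim21 and B2m formed a further list. Of 13 listed, 11 were tested (Fcer1a and Ms4a2, the IgE receptor subunits of mast cells and basophils, were below the filter). Fcrls, an Fc receptor-like gene, was lower in untreated CD103+CD11b- than in untreated CD103-CD11b+ cells by -1.19 ± 0.30 (limma, adjusted p = 0.0114), although the groups overlapped, and Fcrl5 by -0.52 ± 0.15. After DSS, Fcrlb was lower in the CD103+CD11b- than in the CD103-CD11b+ subset by -0.92 ± 0.15, as was Trim21, the cytosolic antibody receptor, by -0.47 ± 0.14, and Fcrlb was lower in the CD103+CD11b+ than in the CD103-CD11b+ subset by -0.82 ± 0.15. Fcrl5 was lower in DSS than in untreated CD103-CD11b+ cells, by -0.77 ± 0.15 (limma, adjusted p = 0.0481). Between CD103+CD11b- and CD103-CD11b+ cells, 5.32% of all genes were called lower in untreated and 4.34% in DSS mice. Between the CD11b+ subsets after DSS 1.14% were called lower. Between DSS and untreated CD103-CD11b+ cells 0.1% of all genes were called. Fcrl5 lay at 3.03 to 3.25 in the DSS arrays of both CD103+ subsets, under the filter level of 3.51. In the same arrays Fcrls at 3.55 to 3.81 and Fcrlb at 3.66 to 3.96 lay under the array medians of 3.99 to 4.09. Differences of these 3 genes may thus involve values at the floor of the array. The calls of Fcrls, Fcrl5 and Trim21 were lost when any of 3 to 6 of the 6 arrays in a comparison was left out (highest adjusted p = 0.214).

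Several genes of the interferon gamma response were higher in CD103+CD11b- cells. Their relation to Fcgr1 was not tested. Of 15 listed, 13 were tested. Between CD103+CD11b- and CD103-CD11b+ cells of untreated mice 4 were higher and 1 lower, where 10.3% of all genes were called and 5.32% were called lower. The higher genes included the peptide transporter Tap1 at 1.32 ± 0.17, the transcription factor Irf8 at 1.29 ± 0.18 and the chemokine Cxcl9 at 1.08 ± 0.19. The lower gene was the guanylate-binding Gbp3 at -0.56 ± 0.18. Irf8 also stands on the cDC1 list used to check the labels. After DSS 6 were higher and 0 lower, where 8.53% of all genes were called. Among the 6 were Tap1 at 1.30 ± 0.17 and the tryptophan-degrading enzyme Ido1 at 1.00 ± 0.27. The call of Gbp3 was lost without any of the 6 arrays (adjusted p of up to 0.188), and that of Ido1 without replicate 4 or 5 of the DSS CD103+CD11b- cells or replicate 4 of the DSS CD103-CD11b+ cells (adjusted p of up to 0.133). Between DSS and untreated cells limma called 0 of 13 in each subset. In CD103+CD11b- cells, CD103+CD11b+ cells and CD103-CD11b+ cells, 2, 3 and 1 genes had an unadjusted p under 0.05. Of all genes, 6.08%, 10.1% and 7.67% had such a p in the same order.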
